A study of Mus musculus with 8 samples.

Results

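The bone-metastatic mouse mammary tumour line 4T1.2 was compared with 4T1, the parental line from which it was cloned, using the 2 RNA-seq libraries of each line. These 4 libraries, chosen by the cell line named in their labels, were 4 of the 8 in the series, and the other 4 came from the related lines 66cl4 (written 66c14 in the labels) and 67NR. All 4 lines were untreated cultures of BALB/c-derived mammary carcinoma cells grown in αMEM with fetal calf serum, without reporter or transgene in the labels. 4T1 and 4T1.2 are the strongly metastatic members of this family, and the study used 4T1.2 because it spreads from the mammary gland to bone. The study described the 2 libraries of a line as biological replicates. Because 4T1.2 is a clonal subline, a difference from 4T1 is a difference between 1 clone and its parent population, and bone metastasis cannot be told apart from any other property of that clone.

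Tumour cells that leave a primary site can loosen the junctions that hold an epithelium together, and E-cadherin, claudins and desmosomal proteins are the genes usually read for this. In bone, tumour cells are known to act on osteoclasts through parathyroid hormone-related protein and the RANK ligand system, of which osteoprotegerin is the decoy receptor. Aneuploid tumour lines also gain and lose whole chromosomes, and the genes of such a chromosome tend to move together by a small amount, which differs from the switching of individual genes.

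The 4 libraries held between 53926066 and 66269681 counts. Across genes, log2 CPM (counts scaled to library size, in parts per 1000000) correlated with r = 0.9963 between the 4T1.2 replicates, r = 0.9948 between the 4T1 replicates, and r = 0.9821 to 0.985 between libraries of the different lines. The labels name a tumour cell line and give no cell type. The epithelial keratin Krt8 was at 906 and 1084 CPM in 4T1.2, against 1261 and 1602 CPM in 4T1. Krt8 also had 16981 to 32549 counts in the 66cl4 and 67NR libraries, so its level alone does not show an epithelial identity. Cdh1 and Epcam are given below. The leucocyte marker Ptprc had at most 2 counts in any of the 4 libraries, and Cd3e, Adgre1 and the endothelial Emcn had 0. The endothelial markers Kdr and Tek had at most 1 and 3 counts in these libraries, and Pecam1 had 11 to 18. A list of 10 endothelial markers, Emcn among them, summed to 31.6 to 34.3 CPM in 4T1.2 and 36.3 to 44.3 CPM in 4T1. In each line 2 of the 10 were at 0. The same sum was 1.17 to 1.28 CPM in 66cl4 and 0.700 to 0.972 CPM in 67NR. The source of this difference was not tested. The summed level of 20 leucocyte markers was 63.8 to 67.7 CPM in 4T1.2 and 67.1 to 72.9 CPM in 4T1, with 9 and 8 of the 20 at 0.

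Of 13926 genes tested, 2687 (19.3%) passed the quasi-likelihood test of edgeR between 4T1.2 and 4T1 at a Benjamini-Hochberg adjusted p of 0.05, and such genes are referred to as called. In 4T1.2, 1305 genes were higher (9.37%) and 1382 were lower (9.92%), so the directions were nearly balanced. Without 4T1.2 replicate 1 the counts were 602 and 771, and without 4T1.2 replicate 2 they were 635 and 792. Above 2-fold the directions were not balanced. There, 270 genes were higher (1.94%) and 629 were lower (4.52%), and decreases made up 70.0% of the 899 large calls, themselves 6.46% of genes tested. A 95% Wilson interval that takes genes as independent was 66.9% to 72.9%. It holds no variation between libraries or clones, and genes that move together make it too narrow. The genes with the largest changes included Gatm, Tph2 and Lama4 on the higher side and Cysltr1, Serpinb8 and Car9 on the lower side.

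**Figure D1:**
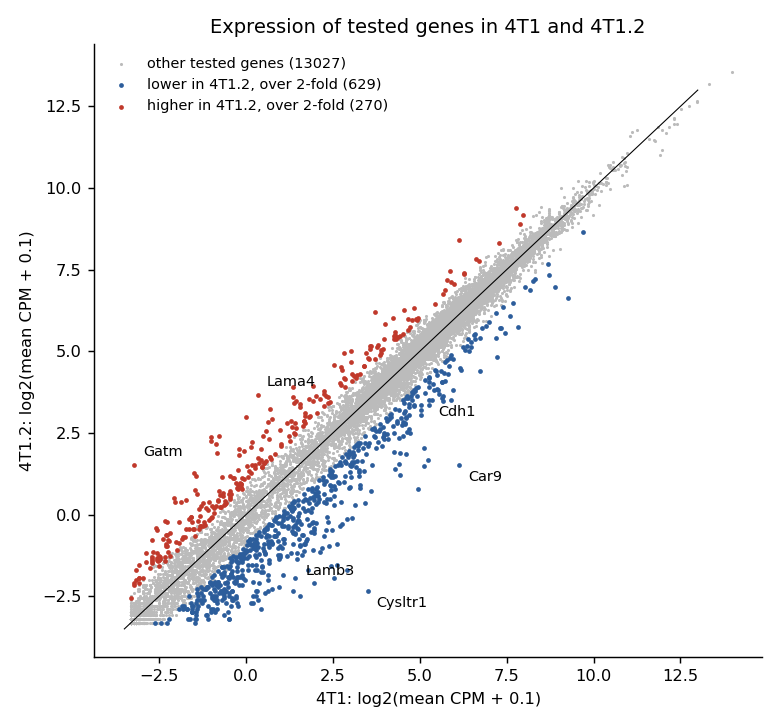
Mean CPM of each tested gene in 4T1 (horizontal) and 4T1.2 (vertical), on a log2 scale after adding 0.1; the diagonal line marks equal levels. Genes called and lower by more than 2-fold in 4T1.2 (629, blue) outnumber those higher (270, red), and most blue points lie at low levels.

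The balance of directions changed steadily with the size of the change. Among called genes with a log2 change under 0.5, 538 were higher and 307 were lower. Between 0.5 and 1, 497 were higher and 446 lower. Between 1 and 2, the counts were 205 and 396, between 2 and 3 they were 44 and 149, and above 3 they were 21 and 84. Decreases were thus 36.3% of the smallest class and 80.0% of the largest.

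**Figure D2:**
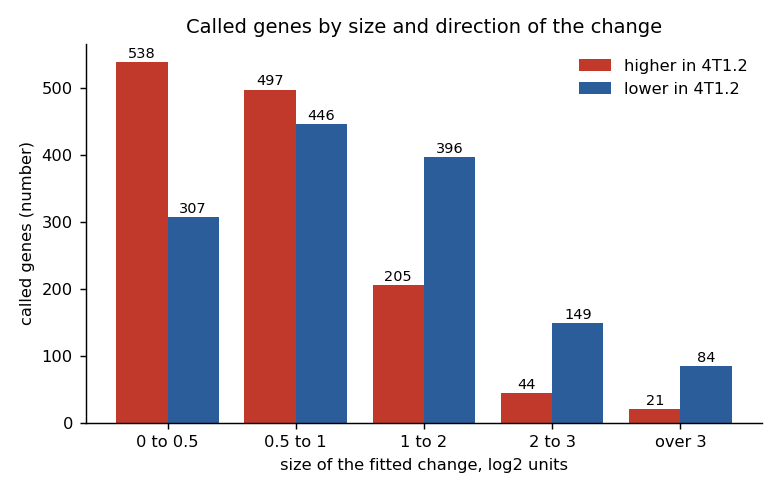
Number of called genes by the size of the fitted log2 change, in 5 classes, with genes higher in 4T1.2 in red and genes lower in 4T1.2 in blue. Higher genes are the majority under 0.5 (538 against 307), and lower genes are the majority in every class above 1.

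The genes that fell by more than 2-fold were weakly expressed in the parental line. Their median level was 2.55 CPM in 4T1 and 0.678 CPM in 4T1.2, against 27.6 and 28.0 CPM over all tested genes. The genes that rose by more than 2-fold had a median of 0.926 CPM in 4T1 and 2.90 CPM in 4T1.2, so they too were weak genes. The excess of decreases was found at each level of expression: decreases were 70.7% of the large calls with a mean under 1 CPM, 72.5% between 1 and 5 CPM, 70.3% between 5 and 20 CPM, 62.5% between 20 and 100 CPM, and 63.0% above that. Large changes themselves were concentrated low on the scale. Between 1 and 5 CPM, 15.9% of genes were lower and 6.03% higher by more than 2-fold, whereas at 100 CPM or more these shares were 0.662% and 0.389%.

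Most decreases were partial. The median gene in the lower set kept 30.9% of its 4T1 level, and 61 of the 629 kept under 10%. For 40 of them, both 4T1.2 libraries held 3 counts or fewer, the floor below which a level is not quantified here. In the higher set, seen from the other side, the median 4T1 level was 36.8% of that in 4T1.2, 12 of 270 genes were under 10%, and 15 were at the floor in both 4T1 libraries. Elsewhere in the family, 35.5% of the genes lower in 4T1.2 reached 1 CPM in both 66cl4 and 67NR, against 78.0% of all tested genes, and 18.3% were at the floor in both of those lines, against 3.19%. In the higher set the same shares were 43.0% and 21.1%. Both sets hold many weak genes, and these shares were not adjusted for level. In bulk RNA, fewer cells expressing a gene and less RNA per cell cannot be told apart, so a partial decrease may be either.

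The largest decrease was that of Cysltr1 (Entrez gene 58861, chromosome X, 106576509 to 106603679, GRCm38), a receptor for cysteinyl leukotrienes. Its 4T1.2 libraries held 0.0880 and 0.106 CPM, and those of 4T1 held 10.8 and 11.6 CPM. The lines did not overlap, as was so for 54.5% of all tested genes. The level was 113-fold lower in 4T1.2 (log2 fold change -6.82, standard error 0.25, adjusted p = 1.58e-06, edgeR). In 66cl4 it was listed at 0 in both libraries and in 67NR it was at 0.0545 and 0.0324 CPM, so 4T1 was the line that stood apart. P2ry10b, a G protein-coupled receptor gene on the same chromosome, was at 0.211 and 0.212 CPM in 4T1.2, against 7.41 and 7.27 CPM in 4T1 (log2 fold change -5.10, adjusted p = 2.77e-05, edgeR). Serpinb8, a serine protease inhibitor, was at 0.0880 and 0.229 CPM against 5.34 and 6.08 CPM (log2 fold change -5.15, adjusted p = 9.87e-06, edgeR).

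Other large decreases involved signalling and cytoskeletal genes. Ksr2, a scaffold of the Ras-MAP kinase cascade, was at 0.106 and 0.159 CPM in 4T1.2, against 4.29 and 3.32 CPM in 4T1, or 28.4-fold lower. Trim54, a tripartite-motif protein known from muscle, fell from 29.0 and 33.2 CPM in 4T1 to 1.74 and 1.48 CPM in 4T1.2, and was near 0 in 66cl4 and 67NR. Lcp1, which encodes the actin-bundling protein L-plastin, was among the strongest of the abundant genes: its 4T1.2 libraries held 96.4 and 103 CPM and its 4T1 libraries 615 and 623 CPM (log2 fold change -2.64, standard error 0.10, adjusted p = 1.40e-06, edgeR). Unc13b, involved in vesicle priming, had 2 counts in each 4T1.2 library against 87 and 49 in 4T1, a ratio of 35.9 (exact 95% counting interval 13.7 to 134). Ankrd6, Ceacam10, Marchf11, Tmem37 and the T-cell costimulatory ligand gene Tnfsf4 had log2 fold changes of -4.61, -4.47, -4.64, -5.10 and -4.19. They completed the 12 largest decreases among called genes with at least 1 CPM in both 4T1 libraries. Weaker genes, some with larger fitted decreases, were left out of this ranking.

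The largest increase was that of Gatm (Entrez gene 67092, chromosome 2, 122594473 to 122611277), the mitochondrial enzyme that makes the creatine precursor guanidinoacetate. Counts were 129 and 186 for 4T1.2, or 2.27 and 3.28 CPM, and 1 and 0 for 4T1. It was also near 0 in 66cl4 and 67NR, so it was detected at a quantifiable level in 4T1.2 alone of the 4 lines. The ratio of 4T1.2 to 4T1 was 298 with an exact 95% counting interval of 53.1 to 11820 (adjusted p = 2.17e-05, edgeR).

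Tph2, a tryptophan hydroxylase of serotonin synthesis, was low in 4T1 alone. It was at 4.51 and 5.61 CPM in 4T1.2, against 0.278 and 0.518 CPM in 4T1, while 66cl4 was at 7.33 and 6.54 CPM and 67NR at 6.25 and 5.23 CPM. Lama4, the alpha-4 chain of laminins found in vessel basement membranes, was at 13.7 and 11.6 CPM in 4T1.2, against 1.11 and 1.21 CPM in 4T1, a 10.9-fold difference (adjusted p = 1.90e-05, edgeR), and at or near 0 in both other lines. The granzyme gene Gzme was at 3.93 and 4.90 CPM in 4T1.2, against 0.311 and 0.582 CPM in 4T1. The LIM-domain genes Lmcd1 and Fhl1 rose by 3.48 and 3.18 on the log2 scale, and Trabd2b, a Wnt-inactivating metalloprotease, by 3.50. Lingo1, Atp13a4, Prr9, Mpped2 and Chst15 had log2 fold changes of 3.32, 3.10, 3.05, 2.96 and 2.77. They completed the 12 largest increases among called genes with at least 1 CPM in both 4T1.2 libraries.

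**Figure D3:**
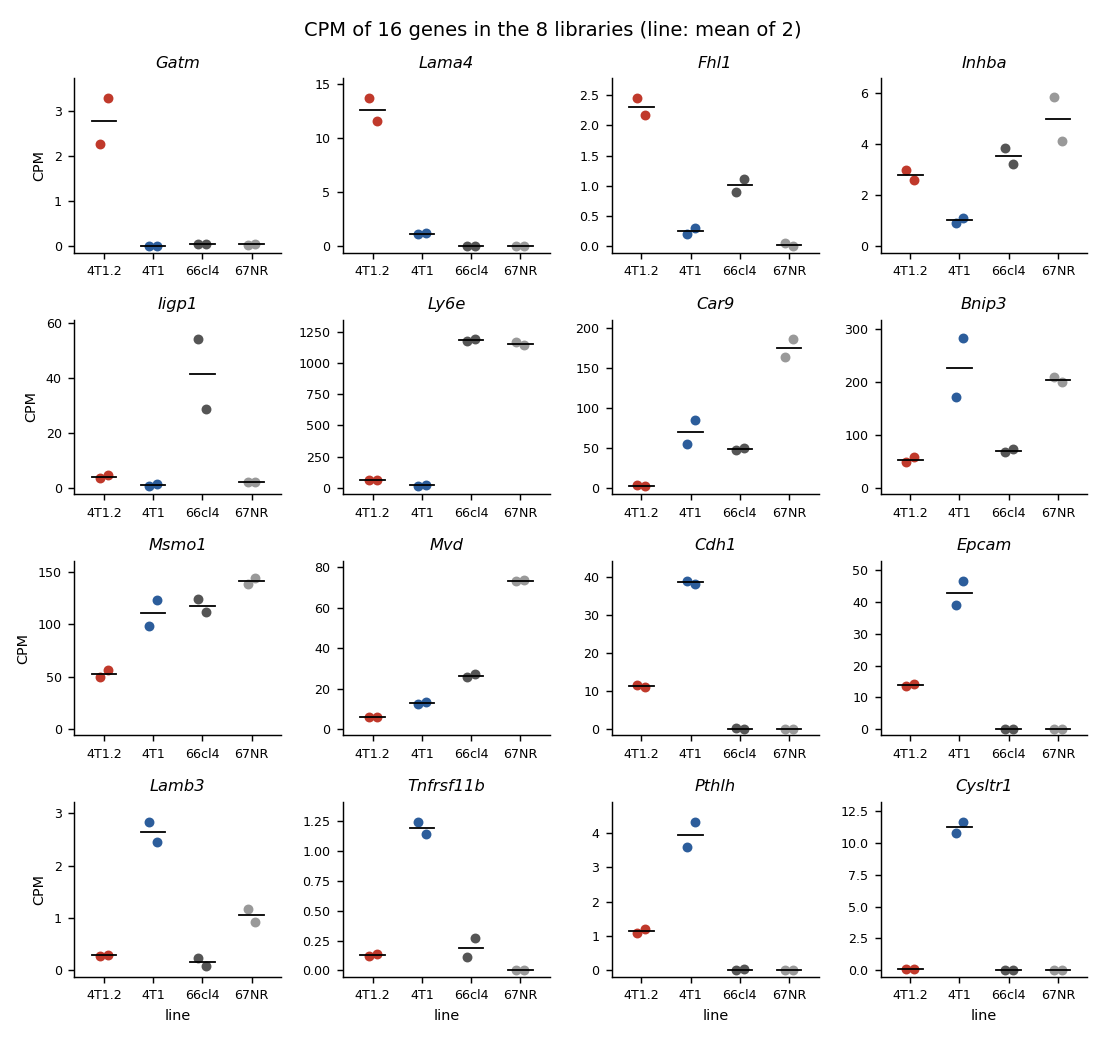
CPM of 16 genes in each of the 8 libraries, with 1 point per library, a bar at the mean of the 2 libraries of a line, and a separate linear axis from 0 for each gene. The 4T1.2 points (red) and 4T1 points (blue) do not overlap in any of the 16 panels. Libraries of the 2 lines did not overlap for 7592 of 13926 tested genes (54.5%). The other lines show which side is unusual for the family.

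Epithelial junction genes were lower in 4T1.2. Of 33 tested genes of epithelial adhesion and identity, 22 were lower (66.7%, against 9.92% of all tested genes), 15 of them by more than 2-fold, and none was higher, with a median log2 fold change of -0.75 against 0.00 over all tested genes. With 1 library of the 4 left out, the count of lower members was 15 to 23 and none was higher. E-cadherin, the adhesion receptor of adherens junctions (Cdh1, Entrez gene 12550, chromosome 8, 106603350 to 106670247), gave 11.6 and 11.1 CPM for 4T1.2 against 38.9 and 38.1 CPM in 4T1 (log2 fold change -1.76, standard error 0.14, adjusted p = 4.37e-05, edgeR). Epcam, an epithelial adhesion molecule, was at 13.7 and 14.2 CPM against 38.9 and 46.6 CPM, or 3.06-fold lower. Both remained far above 66cl4 and 67NR, whose libraries held at most 7 counts of Cdh1 and 1 count of Epcam.

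The membrane protease matriptase (St14) was at 22.3 and 20.1 CPM in 4T1.2, against 103 and 109 CPM in 4T1 (log2 fold change -2.32, adjusted p = 1.58e-06, edgeR). The tight-junction genes Marveld3 and Cldn7 had log2 fold changes of -2.38 and -2.35, and the desmosomal plakophilin Pkp2 one of -2.20. Of 11 tested claudins, 6 were lower and Cldn2 was higher (63.6% called, against 19.3% of all tested genes), with a median of -1.34. Without 4T1.2 replicate 2, 4 claudins were lower and none higher. The increase of Cldn2, at 31 and 42 counts against 19 and 6, had a log2 fold change of 1.47 (adjusted p = 0.0267, edgeR). It was 1.202 with the shift of chromosome X removed (adjusted p = 0.0730, edgeR), and Cldn2 was also not called in the 4 libraries alone or without 4T1.2 replicate 1, 4T1.2 replicate 2 or 4T1 replicate 2. Keratins were mixed. Krt18 and Krt8, the keratin pair of simple epithelium, were lower by 0.81 and 0.52 on the log2 scale and remained abundant, Krt19 fell by 1.92, and Krt76 and Krt16 were higher by 2.42 and 2.09 at levels under 2 CPM. The 4 lower keratins were 0 without 4T1.2 replicate 1, 2 without 4T1.2 replicate 2 and 1 without 4T1 replicate 2. Of the epithelial members that were not called, the transcription factor gene Grhl2 was at 0.211 and 0.194 CPM in 4T1.2, against 0.376 and 0.302 CPM in 4T1, and Dsp, Jup and Tjp1 had log2 fold changes of 0.35, -0.16 and -0.31.

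The decrease of junction genes was not matched by a common rise of mesenchymal genes. Of 33 tested mesenchymal and transition genes, 7 were higher and 3 lower, with a median of 0.00, and no increase passed 2-fold. Some members were absent or nearly so in both lines, and these hold the median near 0. Col3a1 had 0 counts in all 4 libraries. Cdh2 had at most 1 count in each, against 2975 to 5099 in the 66cl4 and 67NR libraries. Col3a1 and Lox entered with a log2 fold change of 0.0. The list counts and median were not adjusted for such members. In all 30.3% were called, against 19.3% of all tested genes, where 9.37% were higher and 9.92% lower. The intermediate filament Vim was at 4802 and 6097 CPM in 4T1.2, against 4741 and 6904 CPM in 4T1, and the 2 lines overlapped. Zeb1 and Fn1 were not called, with log2 fold changes of -0.52 and -0.38. Snai1 and Zeb2, repressors of E-cadherin, were higher by 0.54 and 0.47, and both lie on chromosome 2, whose genes were shifted as a whole. With that shift removed their log2 fold changes were 0.27 and 0.20 (adjusted p = 0.337 and 0.278, edgeR), and the count of higher members of the list was 1. Without 4T1.2 replicate 1 none was higher, and without 4T1.2 replicate 2 and 4T1 replicate 2 the counts were 2 and 3.

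The laminin chain genes Lamb3 and Lama3 fell while Lama4 rose. Lamb3 was at 0.282 and 0.300 CPM in 4T1.2, against 2.83 and 2.46 CPM in 4T1 (log2 fold change -3.18, adjusted p = 0.000110, edgeR), and Lama3 fell by 2.82 on the log2 scale. Both encode chains of a laminin that anchors epithelial cells to their basement membrane. Itga8, an integrin alpha chain, was higher at 175 and 174 CPM against 57.0 and 59.2 CPM. Over 31 tested integrins and laminins, 4 were higher and 8 lower, where 9.37% and 9.92% of all tested genes were. Their median was -0.04, or -0.175 with the chromosome shifts removed. The count of 8 was 4 without 4T1.2 replicate 2 and 5 without 4T1 replicate 1.

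Genes of glycolysis and of the response to low oxygen were lower in 4T1.2. Of 43 tested, 30 were lower, 9 by more than 2-fold, 1 was higher (Pfkm), and the median log2 fold change was -0.72. The shares over all tested genes were 9.92% lower, 4.52% lower by more than 2-fold and 9.37% higher. Carbonic anhydrase 9 (Car9, Entrez gene 230099, chromosome 4, 43507026 to 43513729), a membrane enzyme that handles acid under low oxygen, gave 2.87 and 2.68 CPM in 4T1.2 against 54.5 and 85.4 CPM in 4T1. It was 25.2-fold lower in 4T1.2 (log2 fold change -4.65, standard error 0.22, adjusted p = 2.37e-06, edgeR), and 66cl4 and 67NR were on the side of 4T1 at 47.6 to 186 CPM. The mitophagy gene Bnip3 was at 48.1 and 58.3 CPM against 171 and 282 CPM. Plod1, a collagen lysyl hydroxylase, was at 66.8 and 67.9 CPM against 160 and 224 CPM. The 4T1 replicates differed from each other more than the 4T1.2 replicates did in all 3 genes, with replicate 2 higher, and the lines did not overlap.

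These 3 genes carry, in the RefSeq promoter table (build GRCm38.p6), the core letters of the element that hypoxia-inducible factors bind. The 250 bases before the annotated start are shown 5′ to 3′ for each gene in its own direction because their matches differ in number and place. Capitals mark each ACGTG or GCGTG on either strand, where overlapping matches merge. Car9 (chr4:43506776-43507025, + strand) had 1 match, beginning 18 bases before the start. Bnip3 (chr7:138909507-138909756, - strand) had 5, and Plod1 (chr4:147936777-147937026, - strand) had 1.
Car9: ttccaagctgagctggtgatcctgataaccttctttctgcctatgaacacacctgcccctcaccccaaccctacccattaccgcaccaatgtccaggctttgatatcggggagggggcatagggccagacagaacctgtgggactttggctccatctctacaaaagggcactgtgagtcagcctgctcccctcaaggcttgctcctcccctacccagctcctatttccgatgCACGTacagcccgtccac
Bnip3: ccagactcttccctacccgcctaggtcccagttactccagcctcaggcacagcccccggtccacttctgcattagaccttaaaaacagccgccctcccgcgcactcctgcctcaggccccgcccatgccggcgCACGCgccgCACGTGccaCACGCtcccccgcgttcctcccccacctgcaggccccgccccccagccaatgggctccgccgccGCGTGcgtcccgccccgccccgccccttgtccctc
Plod1: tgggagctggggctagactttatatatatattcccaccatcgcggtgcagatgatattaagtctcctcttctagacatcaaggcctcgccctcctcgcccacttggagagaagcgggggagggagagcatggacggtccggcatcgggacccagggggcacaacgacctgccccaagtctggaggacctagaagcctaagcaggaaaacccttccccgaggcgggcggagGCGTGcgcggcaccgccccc
Of the 30 lower members, 27 had an entry and 23 of these (85.2%) held a match, as did all 13 members that were not lower, against 59.8% of 10930 tested genes with an entry. A match of these letters is a description of sequence and not of factor binding.

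The list also held enzymes of glycolysis itself. Ldha, lactate dehydrogenase A, was at 1854 and 2287 CPM in 4T1.2, against 3070 and 4699 CPM in 4T1 (log2 fold change -0.91, standard error 0.19, adjusted p = 0.00839, edgeR). The glucose transporter Slc2a1 fell by 0.93 and the brain-type aldolase Aldoc by 2.23 on the log2 scale, and Ak4 and Ndrg1 by 2.06 and 1.92. Not all known targets moved. Vegfa was at 70.7 and 63.5 CPM in 4T1.2, against 64.0 and 70.3 CPM in 4T1 and the lines overlapped, and Hilpda and Slc16a3 had log2 fold changes of 0.01 and -0.14. The number of lower members was 20 without 4T1.2 replicate 1 and 27 to 34 with 1 of the other 3 libraries left out. Culture density and oxygen were not given in the sources used here, and their part in the result was not tested.

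Cholesterol synthesis genes were lower by a small amount. Of 36 tested genes of cholesterol and fatty acid synthesis, 18 were lower and 2 higher, with a median of -0.36. Among all tested genes 9.92% were lower and 9.37% higher. Mvd, a mevalonate-pathway decarboxylase, was at 6.18 and 5.96 CPM in 4T1.2, against 12.4 and 13.4 CPM in 4T1, 2.12-fold lower (adjusted p = 0.000106, edgeR). Msmo1, a sterol oxidase, fell by 1.07 on the log2 scale and Fdps, which makes farnesyl diphosphate, by 1.03. The fatty acid enzymes Fasn, Acaca and Acly were not called (log2 fold changes 0.12, 0.27 and -0.18). The fatty acid desaturases Scd1 and Scd2 were lower (log2 fold changes -0.60 and -0.32, adjusted p = 0.000999 and 0.0458, edgeR). With the chromosome shifts removed, 18 members of the list were lower and 0 higher. Without 4T1.2 replicate 2, 12 members were lower.

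Genes that interferons induce were higher in 4T1.2. Of 61 tested, 23 were higher, 13 by more than 2-fold, and 3 were lower, where the shares over all tested genes were 9.37%, 1.94% and 9.92%, with a median log2 fold change of 0.41. The immunity-related GTPase gene Iigp1 was at 3.41 and 4.74 CPM in 4T1.2, against 0.802 and 1.23 CPM in 4T1 (log2 fold change 2.03, standard error 0.36, adjusted p = 0.00378, edgeR). Ifit1, an antiviral RNA-binding protein, was at 25.5 and 35.7 CPM against 9.30 and 12.2 CPM, and Ly6e, a membrane protein that restricts viral entry, at 65.5 and 64.0 CPM against 17.5 and 19.5 CPM. In 66cl4, Iigp1 was at 54.1 and 28.8 CPM and Ifit1 at 133 and 79.0 CPM, so 4T1.2 was below that line. Not all members rose. The guanylate-binding protein gene Gbp4 was at 8.78 and 7.65 CPM against 30.5 and 35.4 CPM in 4T1, 4.01-fold lower (adjusted p = 8.31e-06, edgeR), Isg20 fell by 1.62, and Isg15 and Ifit2 were not called (log2 fold changes 0.29 and 0.07). The count of 23 was 13 without 4T1.2 replicate 1 and 12 without 4T1.2 replicate 2.

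**Figure D4:**
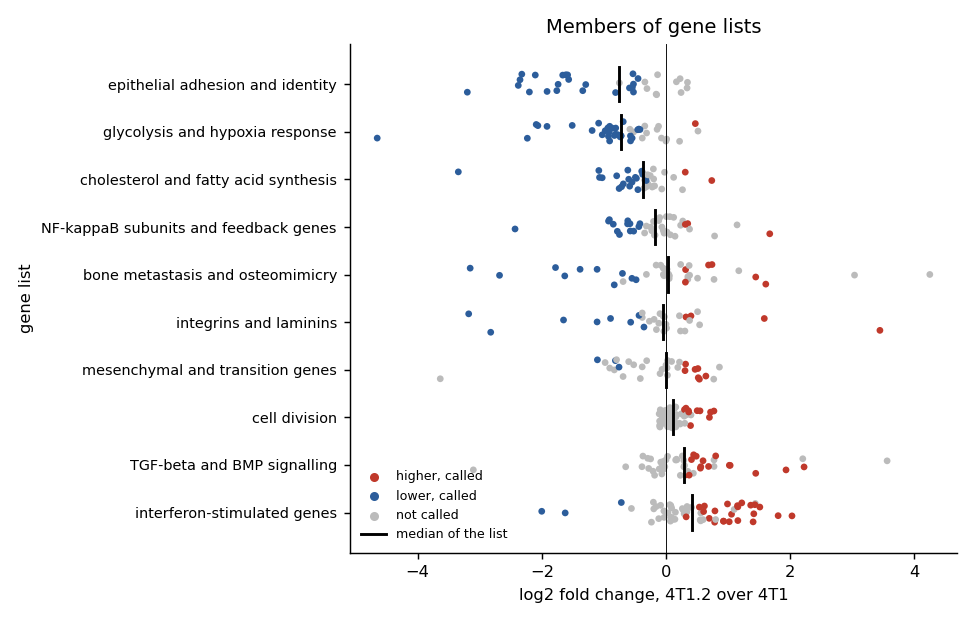
Log2 fold change of each tested member of 10 gene lists, 1 point per gene, coloured by whether it was called higher (red), called lower (blue) or not called (grey), with a black bar at the median of each list. The epithelial and the glycolysis and hypoxia lists lie to the left with medians of -0.75 and -0.72, the interferon-stimulated list lies to the right with 0.41, and the mesenchymal list is centred on 0.

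Of 47 tested genes of the TGF-beta and BMP pathways, 15 were higher, where 9.37% of all tested genes were, and 32 were not called. None was lower (1 was by the DESeq2 Wald test and without 4T1 replicate 2), and the median was 0.29. Of the ligands, the activin subunit gene Inhba was at 2.97 and 2.59 CPM in 4T1.2, against 0.933 and 1.12 CPM in 4T1 (log2 fold change 1.45, adjusted p = 0.00240, edgeR), and Bmp7 was higher by 0.69. The BMP antagonist Chrd was at 8.27 and 6.65 CPM against 1.67 and 1.51 CPM, 4.67-fold higher. The BMP-responsive genes Id1, at 86.1 and 88.0 CPM against 41.4 and 44.5 CPM, and Smad6, at 17.5 and 18.7 CPM against 8.64 and 9.06 CPM, rose by 1.02 and 1.03 on the log2 scale. Over the alternative runs, chromosome shifts removed among them, Id1 ran from 0.75 to 1.07 and Smad6 from 0.94 to 1.09. The receptors Tgfbr2, Bmpr1a and Bmpr2 were not called (log2 fold changes 0.17, 0.29 and -0.18). With the chromosome shifts removed 11 members were higher and the median was 0.175, and Bmp7, on chromosome 2, went from 0.69 to 0.42 (adjusted p = 0.0607, edgeR). The count of 15 was 8 without 4T1.2 replicate 1 and 10 without 4T1 replicate 2.

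Genes tied to bone metastasis and osteomimicry went both ways, with 10 of 38 lower and 6 higher and a median of 0.03. Over all tested genes, 9.92% were lower and 9.37% higher. Osteoprotegerin (Tnfrsf11b), the decoy receptor of RANK ligand, was at 0.123 and 0.141 CPM in 4T1.2, against 1.24 and 1.14 CPM in 4T1, 8.91-fold lower (log2 fold change -3.15, adjusted p = 0.000731, edgeR). Parathyroid hormone-related protein (Pthlh) was at 1.09 and 1.2 CPM against 3.58 and 4.31 CPM, 3.43-fold lower (adjusted p = 0.00141, edgeR). The mineralisation genes Alpl and Ibsp fell by 2.68 and 1.63 on the log2 scale. On the higher side, the macrophage and osteoclast growth factor Csf1 was at 266 and 213 CPM against 157 and 130 CPM, 1.67-fold higher (adjusted p = 0.00513, edgeR), and the leukaemia inhibitory factor receptor Lifr rose by 1.61 at under 0.5 CPM. Spp1, Runx2, Il11 and Mmp9 were not called (log2 fold changes 0.37, 0.05, -0.04 and 0.24). The lower count was 6 without 4T1.2 replicate 2.

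Secreted immune signals were similarly divided, with 51.4% called, against 19.3% of all tested genes (9.37% higher and 9.92% lower). Of 35 haematopoietic cytokines and chemokines, 7 were higher and 11 lower, and the lower count was 6 without 4T1.2 replicate 1 and 4 without 4T1.2 replicate 2. Tslp, an epithelial cytokine that acts on dendritic cells, was abundant at 662 and 669 CPM in 4T1.2, against 202 and 235 CPM in 4T1, 3.05-fold higher (adjusted p = 4.37e-05, edgeR), and the alarmin Il33 was at 18.6 and 20.7 CPM against 8.15 and 11 CPM. The chemokine Ccl20 was at 1.80 and 1.76 CPM against 9.05 and 10.1 CPM, 5.38-fold lower, and lymphotoxin beta (Ltb) fell by 2.43 on the log2 scale. Relb, Nfkb2 and Nfkbia were lower (log2 fold changes -0.93, -0.58 and -0.52). Among 39 NF-kappaB subunits and feedback genes, 13 were lower and 3 higher (41% called, against 19.3% of all tested genes), with a median of -0.18. Without 4T1.2 replicate 1 and replicate 2 in turn, 7 and 8 of these were lower.

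A different kind of change was carried by whole chromosomes. For each chromosome the median log2 fold change of its tested genes was taken relative to all tested genes, and a chromosome was named where this shift was at least 0.1 in size and in 1 direction in all 4 pairs of a 4T1.2 with a 4T1 library. Chromosomes 2, 14 and X were shifted up in 4T1.2 by 0.27, 0.24 and 0.27, and chromosomes 12 and 17 were shifted down by 0.12 and 0.15. Over genes that were not called, the shift of chromosome X was 0.160 and that of chromosome 12 was -0.0827, under the limit of 0.1. Over the 4 library pairs the shift was 0.242 to 0.275 for chromosome 2, 0.243 to 0.255 for chromosome 14, 0.257 to 0.290 for chromosome X, -0.148 to -0.106 for chromosome 12 and -0.160 to -0.127 for chromosome 17. Between replicates of a line, the largest shift of any of the 20 chromosomes was 0.0206 in 4T1.2 and 0.0303 in 4T1. Chromosome 16, at 0.13, missed the rule because its lowest pair was at 0.0958. Chromosome 1, at -0.098 with pairs from -0.112 to -0.0923, also fell just short, with 35 genes higher and 121 lower. Chromosome 10 was at -0.086, with 44 higher and 99 lower. On chromosome 15 the windows from 0 to 60 Mb were at -0.25, -0.22 and -0.17. Chromosomes that were not named were therefore not all free of shifts.

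**Figure D5:**
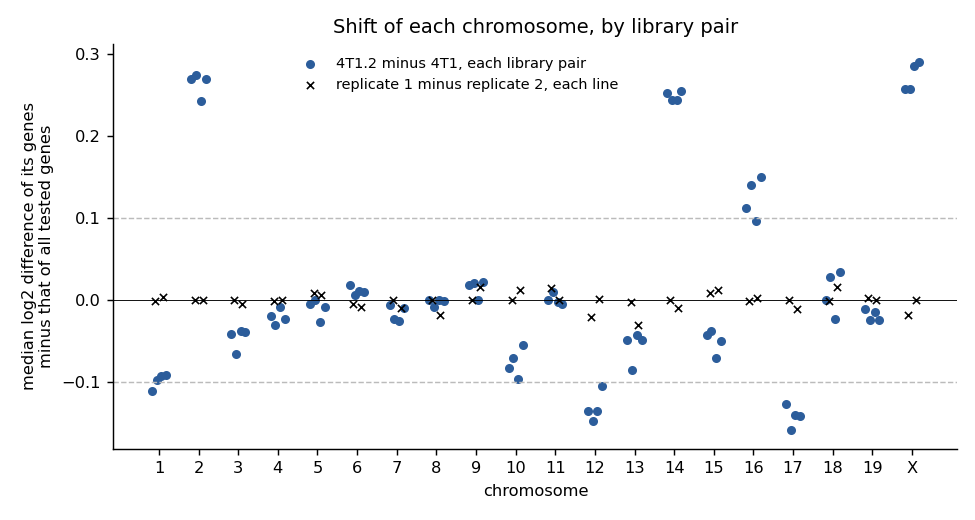
Shift of each chromosome (median log2 difference of its tested genes minus that of all tested genes), with 1 blue point for each of the 4 pairs of a 4T1.2 and a 4T1 library and 1 cross for each pair of replicates. Chromosomes 2, 14 and X lie above the dashed line at 0.1, chromosomes 12 and 17 lie below that at -0.1, and the crosses stay within 0.0303 of 0.

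On chromosome 2, 79.7% of the 1110 tested genes lay above the median of all genes, so the shift was spread over the chromosome and not carried by a few genes. In windows of 20 Mb its 10 windows were shifted by 0.13 to 0.32. The 7 windows of chromosome 14 were shifted by 0.12 to 0.32, 2 of them with under 20 genes. Chromosome X was less even, with 0.51 between 80 and 100 Mb and 0.48 between 100 and 120 Mb, and 0.08 to 0.30 in its other windows. On chromosome 12 the shift grew towards the far end, from -0.02 between 20 and 40 Mb to -0.22 between 100 and 120 Mb.

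The other 2 lines give these shifts a scale. Against 66cl4 and 67NR, chromosome 2 was shifted by 0.33 and 0.38 in 4T1.2 and by 0.07 and 0.10 in 4T1. Chromosome 14 was shifted by 0.64 and 0.61 in 4T1.2 and by 0.40 and 0.42 in 4T1. Chromosome X was shifted by -0.29 and -0.23 in 4T1.2 and by -0.58 and -0.53 in 4T1. These values share their 66cl4 and 67NR libraries and are given side by side. DNA copy number was not measured, and its part in the shifts was not tested.

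Much of the count of small increases lay on the shifted chromosomes. The 5 named chromosomes held 3228 of the tested genes, and 19.7% of these were called higher, against 6.26% of genes elsewhere. Of their 635 higher genes, 312 had a log2 change under 0.5 and 552 a change of at most 1. When the median of each chromosome was removed within the model, 2080 genes were called (14.9%), 862 higher and 1218 lower. Of the 2687 original calls 1942 remained, 745 were lost, and 138 new genes were called. Of the 1305 higher calls 798 remained, and 447 of the 507 that were lost lay on the named chromosomes. Of the 1382 lower calls 1144 remained. Chromosome 2 alone went from 342 higher and 55 lower genes to 73 and 90.

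Large changes were little touched by the removal, which moved a gene by at most 0.27 on the log2 scale. For changes of over 1 most calls could be kept by size alone. Of the 899 genes over 2-fold, 853 were still called, among them 607 of 629 lower and 246 of 270 higher. With the 5 chromosomes left out altogether, decreases were 73.1% of the large calls. Several large decreases ran against their own chromosome. Cysltr1 and P2ry10b lie on chromosome X, and their log2 fold changes went from -6.82 and -5.10 to -7.08 and -5.37 once its shift was removed. On chromosome 2, Fermt1, which encodes the integrin activator kindlin-1, was at 0.757 and 0.617 CPM in 4T1.2, against 7.04 and 5.89 CPM in 4T1, and the myosin light chain Myl9 was at 0.282 and 0.370 CPM against 2.52 and 3.39 CPM. On chromosome 14, Acox2, a peroxisomal oxidase of bile acid synthesis, was at 2.82 and 2.84 CPM against 21.2 and 21.3 CPM (log2 fold change -2.91, adjusted p = 1.58e-06, edgeR), and 14.1 to 17.8 CPM in the other lines. The increase of Gatm on chromosome 2 was 7.63 after removal, and that of Gzme on chromosome 14 was 3.10. Matn4 on chromosome 2, with 8 and 7 counts against 1 and 0, had a log2 fold change of 3.52 before and 3.27 after (adjusted p = 0.0475 and 0.0803, edgeR), and it was not called in 11 of 14 alternatives.

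Between single genes and chromosomes lay local runs of neighbouring genes. There were 10 runs of at least 3 adjacent tested genes all called in 1 direction by more than 2-fold, 7 of them lower and 3 higher. The longest lay on chromosome 11 (114889152 to 115162773), where 7 genes of the Cd300 family of leucocyte-type immunoreceptors and their neighbour Rab37 were lower, with log2 fold changes from -3.68 to -1.28. There, Cd300ld5 was at 1.39 and 1.52 CPM in 4T1.2, against 4.89 and 4.42 CPM in 4T1, and Cd300a had 2 and 7 counts against 62 and 50. A run of 5 genes on chromosome 4 from Fhad1 to Kazn included Tmem51, at 5.90 and 7.49 CPM against 21.6 and 26.3 CPM. On chromosome 12, the protease inhibitor genes Serpina1d, Serpina1a and Serpina1c, and further on Serpina3f, Serpina3g, Serpina3h and Serpina3i, were lower. Serpina3g was at 0.176 and 0.247 CPM against 2.88 and 3.75 CPM, and Serpina3f had 0 counts in both 4T1.2 libraries against 15 and 13.

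The other lower runs were Hoxd3os1, Hoxd3 and Hoxd4 on chromosome 2, Acox2, Fam107a and Oit1 on chromosome 14, and Gtsf1, Nckap1l and Pde1b on chromosome 15. Nckap1l, which encodes the actin regulator HEM1, was at 4.91 and 5.31 CPM against 16 and 14.8 CPM (log2 fold change -1.59, adjusted p = 0.000165, edgeR). The higher runs were Ifit3b, Ifit1bl2 and Ifit1 on chromosome 19, Lynx1, Ly6e and Ly6a on chromosome 15, and the near-identical 1700049E17Rik2, 1700049E17Rik1 and 1700024B05Rik on chromosome 14. Reads of paralogs in the Cd300, Serpina, Ifit and 1700049E17Rik groups may be split between copies, and reads of Hoxd3os1 and Tmem51os1 cannot be told apart from those of the genes they overlap where strand was not counted. The levels of the members of these runs are therefore uncertain one by one. Some runs also rested on calls that other settings lost. After all libraries were thinned to the smallest total, Kazn, Oit1, Ifit1bl2, Serpina1d and Serpina1c were not called. The runs of Serpina1, Acox2 and Ifit genes were then under 3 genes. In the 4T1.2 and 4T1 libraries alone, all of these but Serpina1c were not called.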

How the data were processed

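RNA from 8 libraries (4T1.2, 4T1, 66cl4 and 67NR, 2 each) was prepared with the TruSeq RNA v2 kit. The authors deposited whole-number counts per Entrez gene, made per the labels with featureCounts on mm10. Their methods name Rsubread with its NCBI annotation, filterByExpr, and for the tumour lines the quasi-likelihood method of edgeR. Strand setting was not given in the sources used here. The deposited values were used as raw counts, totals being 37159840 to 66269681 per library. Counting error is small at this depth except for genes of a few counts, and the exact intervals and floors cover counting error only.

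Of 27179 genes, 25275 (93%) matched the GRCm38.p6 RefSeq table. Ribosomal protein, predicted and unmatched genes were removed, as the authors describe for ribosomal, predicted and obsolete entries. They held 5.29% to 6.73% of the counts of the 4 libraries. The function filterByExpr kept 15269 genes, and 13926 were tested after these removals. edgeR 4.0.16 (R 4.3.3) fitted TMM-scaled counts of all 8 libraries with a mean per line and tested 4T1.2 minus 4T1 by quasi-likelihood, with a prior count of 0.125, Benjamini-Hochberg adjustment and a threshold of 0.05. All adjusted p-values came from edgeR. The biological coefficient of variation was 9.74%. CPM used TMM-scaled library sizes. On data simulated from these libraries (13926 genes), 176 of 200 changed genes were recovered with 9 false calls. The simulation gave every gene a common spread, changed only genes above a minimum count and held no chromosome shifts. Its numbers are therefore not error rates of the calls above. A ratio with an exact interval pools the 2 libraries of a line. Alternatives used DESeq2 1.42.0 and limma 3.58.1, other filters, scalings and library sets.

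Named genes were the 12 largest decreases and increases with at least 1 CPM in the higher line and no overlap, up to 5 called members per list with the largest change, members of runs, up to 6 genes per shifted chromosome, and genes the study names. Other list members were named after their values were seen, and a few genes are not reported here. The lines, lists and rules were chosen with earlier results of these data known.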

Additional observations from a re-analysis of the deposited data

Results flagged for a closer look

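Among genes left out of the tested set, 18 of 695 predicted genes and 9 of 533 genes with no entry in the gene table were higher in 4T1.2 when they were tested alongside the others by edgeR, while 28 and 21 were lower. Of the genes tested above, 9.37% were higher and 9.92% lower. The predicted and unlisted genes are given because no comparison above used them.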

How the results depend on the processing

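Of 230 named genes 224 were called, and 155 kept call and direction in every alternative run. With at least 10 counts in every library, 128 genes were higher and 269 lower by more than 2-fold, which is a smaller set of genes tested. With the 4T1.2 and 4T1 libraries alone 759 genes were higher, and with chromosome medians removed 862. Leaving out 1 library at a time gave 602 to 1542 higher and 771 to 1568 lower genes, the lowest 2 values of each without a 4T1.2 library. The lone library left in a line was assumed to vary like the others. The share of decreases among large calls was 78.2% in a test against a log2 change of 1 and at a 4-fold limit, 66.8% at a mean of at least 5 CPM, and 73.1% with the shifted chromosomes left out (chosen after seeing the data). From genes that were not called, the shifts were 0.185 (chromosome 2), -0.0827 (12), 0.178 (14), -0.116 (17) and 0.160 (X). As trimmed means they were 0.235 (2), 0.196 (14) and 0.213 (X). Chromosome 14 was at 0.230 to 0.243 and chromosome 17 at -0.158 to -0.132 with 1 library left out, and chromosome 14 was at 0.250 in thinned libraries. With a GC trend removed (chosen after seeing the data), 14 and X were at 0.253 and 0.294. Csf3 and Cxcl11, not called, changed sign (log2 fold changes 0.07 and -0.10 in the full data). With 1 library left out they ran from -0.15 to 0.25 and from -0.57 to 0.45, with the other sign without 4T1.2 replicate 1 and without 4T1 replicate 2, and in thinned libraries they were -0.019 and 0.21. The replicate block gave 1414 higher and 1475 lower genes, and 260 and 621 over 2-fold. Deviations of replicates with the same number correlated at 0.2697 between 4T1.2 and 4T1. Between the other pairs of lines they correlated at -0.1231 to 0.07388. The study names no pairing of replicates, and the main fit used no replicate block. Whether 4T1.2 and 4T1 replicates of the same number shared a condition was not tested. The cause of the changes between alternative runs was not tested.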

Other observations

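Several other families moved without a common direction. Of 36 angiogenic growth factors and receptors, 8 were higher and 9 lower in 4T1.2, where 9.37% and 9.92% of all tested genes were. The lymphangiogenic ligand Vegfc was at 34.3 and 32.4 CPM in 4T1.2, against 10.9 and 12.7 CPM in 4T1 (2.83-fold higher, adjusted p = 2.62e-05, edgeR), and the angiogenesis inhibitor Thbs1 was at 348 and 286 CPM against 167 and 146 CPM. The FGF-binding protein Fgfbp1 was at 3.89 and 4.16 CPM against 29.1 and 39.8 CPM (log2 fold change -3.10). Tie1, a receptor best known from endothelium, was at 0.546 and 0.882 CPM against 6.06 and 7.25 CPM. Cdh5, also an endothelial marker, was at 0.739 and 0.582 CPM against 3.34 and 1.94 CPM. The summed level of 10 endothelial markers was 31.6 to 34.3 CPM in 4T1.2 and 36.3 to 44.3 CPM in 4T1, with 2 of the 10 at 0 in each line, Emcn among them. Their part in the values of Tie1 and Cdh5 was not tested. Among 54 semaphorin, plexin, ephrin, slit and netrin genes, 13 were higher and 6 lower, beside the same 9.37% and 9.92% of all tested genes. Sema7a, a membrane-anchored semaphorin, was at 32.6 and 28.9 CPM against 7.27 and 6.60 CPM, and Sema5a at 1.30 and 1.11 CPM against 7.07 and 6.17 CPM. The higher count was 6 without 4T1.2 replicate 1.

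Of 44 glutathione and NRF2 target genes, 14 were higher and 5 lower (9.37% and 9.92% of all tested genes), with a median of 0.15. The quinone reductase Nqo1 was at 53.4 and 58.9 CPM in 4T1.2, against 30.1 and 28.9 CPM in 4T1, and the glutathione transferase Mgst1 at 55.8 and 71.9 CPM against 21.7 and 28.9 CPM. With the chromosome shifts removed 9 were higher, and without 4T1.2 replicate 2 there were 7. Of 62 cell division genes, 10 were higher and none lower (16.1% called, against 19.3% of all genes, of which 9.37% were higher), with a median of 0.11, and the largest change was that of the transcription factor Mybl2 at 104 and 103 CPM against 65.7 and 55.7 CPM. That count was 5 with the shifts removed, 5 without 4T1.2 replicate 1 and 3 without 4T1.2 replicate 2. Of 43 AP-1 and serum-response genes, 11 were higher and 2 lower (9.37% and 9.92% of all tested genes). The early-response gene Egr1 was at 110 and 107 CPM against 62.7 and 38.8 CPM. The higher count was 6 without 4T1.2 replicate 1. Of 29 genes of MHC class I presentation and checkpoint ligands, 1 was higher and 2 lower, and of 46 ATF4 and amino acid stress genes 3 were higher and 4 lower, both under the 19.3% called among all genes. Of 13 mitochondrially encoded genes none was called by edgeR, with a median of -0.33 and summed levels of 31130 to 56740 CPM in 4T1.2 and 47210 to 60170 CPM in 4T1.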
